A study of Mus musculus with 12 samples.

Results

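Deletion of Bnip3 in macrophages went with 770 genes of gonadal fat that differed from WT in the same direction and by a similar amount on both diets, which is 3.79% of the 20297 genes tested. Of these, 551 (2.71%) were higher and 219 (1.08%) were lower in the knockout (MKO). The higher ones held enzymes that bring pyruvate into mitochondria and through the tricarboxylic acid cycle, makers of fatty acids and triglyceride, coats of the lipid droplet, and respiratory chain genes of both the nuclear and the mitochondrial genome. The lower ones included Egr2, Ptpn22, Gcnt1 and Ctsh. They included none of the 18 macrophage markers looked at, which is near the 1.08% of all genes tested. Some of the shared genes, several of them pseudogenes or neighbours on chromosome 17, divided the 6 MKO from the 6 WT libraries on either diet.

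The effect was defined as the mean of the MKO minus WT difference on the high-fat diet (HFD) and that on normal chow (NCD), so that 6 libraries of each genotype entered it. A gene was counted as shared where this average passed edgeR's quasi-likelihood test (adjusted p under 0.05, by Benjamini and Hochberg across every gene tested), both diets gave the same sign, and the smaller log2 fold change was at least 0.5 of the larger. Sign and size on each diet were therefore used to choose the genes and are given below as a description. Of the 1473 genes called on the average (7.26%), 628 had the same sign with unequal sizes and 75 had opposite signs. Just inside the limit on size lay Jup and Xdh, whose smaller change was 0.501 of the larger for each, and Gm35189 at 0.502. Just outside lay Slc2a4 at 0.499 and Pmp22 and Pfkfb1 at 0.498 each.

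Messenger RNA was sequenced from 4 groups of 3 biological replicates each, which are MKO on HFD, WT on HFD, MKO on NCD and WT on NCD. Each diet was given for 12 weeks from 8 weeks of age. The knockout is described as macrophage-specific, and neither the driver of the deletion nor the alleles carried by the WT mice are given in the sources used here. RNA came from the whole tissue, so fewer cells of a type and less RNA per cell cannot be told apart. Whether a library pools several mice is not given either.

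BNIP3 sits in the outer mitochondrial membrane and recruits the autophagy machinery, which marks mitochondria for removal, and its gene is induced by low oxygen. Gonadal white fat is made of adipocytes with blood vessels, progenitors and immune cells between them, and macrophages gather there in obesity. Adipocytes build fat from glucose: pyruvate crosses into mitochondria, is turned to oxaloacetate by pyruvate carboxylase and to acetyl-CoA by the pyruvate dehydrogenase complex, leaves as citrate, and is made into fatty acids that are stored as triglyceride in a droplet coated by perilipins.

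The promoters of 3 members that rose on both diets are given as examples, from 250 bases before to 50 bases after a listed start (GRCm38.p6, gene strand, 5′ to 3′). They are those of Pcx (pyruvate carboxylase, chr19:4510222-4510521, plus strand, the first of 2 promoters listed for it), Pdhb (a subunit of pyruvate dehydrogenase, chr14:8172943-8173242, minus strand) and Thrsp (a lipogenic regulator, chr7:97417501-97417800, minus strand). Capitals mark the letters CCAAT, or ATTGG where they lie on the other strand, and CACGTG, which is the same on both strands.
Pcx: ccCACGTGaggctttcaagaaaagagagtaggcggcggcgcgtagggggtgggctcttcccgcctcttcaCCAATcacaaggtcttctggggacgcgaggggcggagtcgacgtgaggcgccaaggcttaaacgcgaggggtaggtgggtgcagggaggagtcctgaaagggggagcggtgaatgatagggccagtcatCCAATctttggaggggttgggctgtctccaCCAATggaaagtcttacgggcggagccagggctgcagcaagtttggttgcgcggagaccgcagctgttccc
Pdhb: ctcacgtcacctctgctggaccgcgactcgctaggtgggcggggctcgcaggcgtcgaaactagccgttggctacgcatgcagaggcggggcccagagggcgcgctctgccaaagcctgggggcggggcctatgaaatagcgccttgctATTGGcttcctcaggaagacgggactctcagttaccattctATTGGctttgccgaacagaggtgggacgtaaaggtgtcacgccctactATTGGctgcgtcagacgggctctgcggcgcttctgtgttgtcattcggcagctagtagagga
Thrsp: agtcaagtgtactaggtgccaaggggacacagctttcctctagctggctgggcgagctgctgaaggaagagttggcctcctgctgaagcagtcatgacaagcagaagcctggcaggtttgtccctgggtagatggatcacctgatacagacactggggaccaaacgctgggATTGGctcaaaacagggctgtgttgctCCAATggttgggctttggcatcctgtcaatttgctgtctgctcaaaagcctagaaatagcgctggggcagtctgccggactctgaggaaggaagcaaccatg

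CCAAT on either strand occurred 3 times in the Pcx window, 3 times in that of Pdhb and 2 times in that of Thrsp, and CACGTG occurred 1 time in that of Pcx. The 3 windows are not typical of the shared genes. Among others that rose, CCAAT occurred 2 times for Cs and 1 time for Pnpla3, Pdhx, Plin4 and Acacb. It occurred 0 times for Acaca, Pdha1, Lpin1 and Plin1, and CACGTG was absent from all of these other windows. Over the promoters that could be matched, CCAAT was present in 40.7% of 386 shared genes that were higher and 32.5% of 169 that were lower, against 38.1% of 14486 genes tested. CACGTG was present in 8.81% and 10.1% of the same sets, against 9.22% of all. GGGCGG, searched on both strands and not marked in the sequences, was present in 67.9% and 65.7%, against 55.7% of all. These shares describe letters in a window of 300 bases. The windows of Pdhb, Acaca, Lpin1 and Acacb lie inside their annotated genes, so they do not cover the outermost start.

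Library totals ran from 52.9 to 72.7 M counts, and the share of table genes at 0 was 57.3% in MKO NCD replicate 2, against 15.6% to 38.3% in the other libraries. Levels below are CPM, counts scaled to the library total and not to gene length, so that they compare libraries and not genes. Without that replicate, 689 genes were shared and higher and 440 shared and lower. The 13 epididymis markers of the table summed to 0.364, 0.0768 and 0.265 CPM in MKO on HFD, where WT libraries gave 0.378, 0 and 0.836 CPM. The NCD sums were 20.5, 0 and 2.79 CPM in MKO and 6350.1, 7259 and 8353 CPM in WT. The epididymis lies against this fat pad, and its markers were highest in the 3 WT libraries on NCD. Bnip3 itself, counted over the whole gene in the whole tissue, does not check a deletion in macrophages alone. Bnip3 averaged 445 ± 30.5 CPM in MKO on HFD, against 395 ± 32.7 CPM in WT, and 640.2 ± 148 CPM in MKO on NCD, against 478 ± 87.7 CPM in WT (SD, n = 3 each), and the averaged log2 fold change was 0.30 ± 0.12 (SE), adjusted p = 0.179.

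Genes that were higher in MKO on one diet were mostly higher on the other. In the test of HFD by itself 271 genes were called higher in MKO (1.34% of those tested), and 259 of them (95.6%) had a positive log2 fold change on NCD as well, where 40.5% of all genes did. Of the 450 called higher on NCD by itself (2.22%), 370 (82.2%) were also positive on HFD, against 48.4% of all genes. The 2 contrasts share no library. The calls themselves overlapped in 92 genes, which is 33.9% of the HFD list and 20.4% of the NCD list.

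Among genes lower in MKO the shares were smaller. Of 454 called lower on HFD (2.24%), 225 (49.6%) were also negative on NCD, where 59.4% of all genes were. Of 432 called lower on NCD (2.13%), 275 (63.7%) were negative on HFD, against 49.8% of all genes. The calls overlapped in 25 genes, which is 5.51% of the HFD list and 5.79% of the NCD list. Across the 15011 genes with a mean level of at least 1 CPM, the log2 fold changes of the 2 diets had a Pearson r of 0.28, given as a description since genes are not independent, and 59.2% had the same sign. These counts changed when single libraries were left out, also libraries of the other diet, and the cause was not tested. The 725 genes called on HFD (3.57%) became 7 (without MKO HFD replicate 1), 13 (without MKO HFD replicate 2), 48 (without WT HFD replicate 2) and 175 (without WT HFD replicate 1). They became 813 without MKO HFD replicate 3 and 1580 without MKO NCD replicate 2. The 882 called on NCD (4.35%) became 391 without MKO NCD replicate 3, 415 without WT NCD replicate 1, 545 without WT HFD replicate 1, 572 without WT NCD replicate 2 and 584 without MKO HFD replicate 2.

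**Figure D1:**
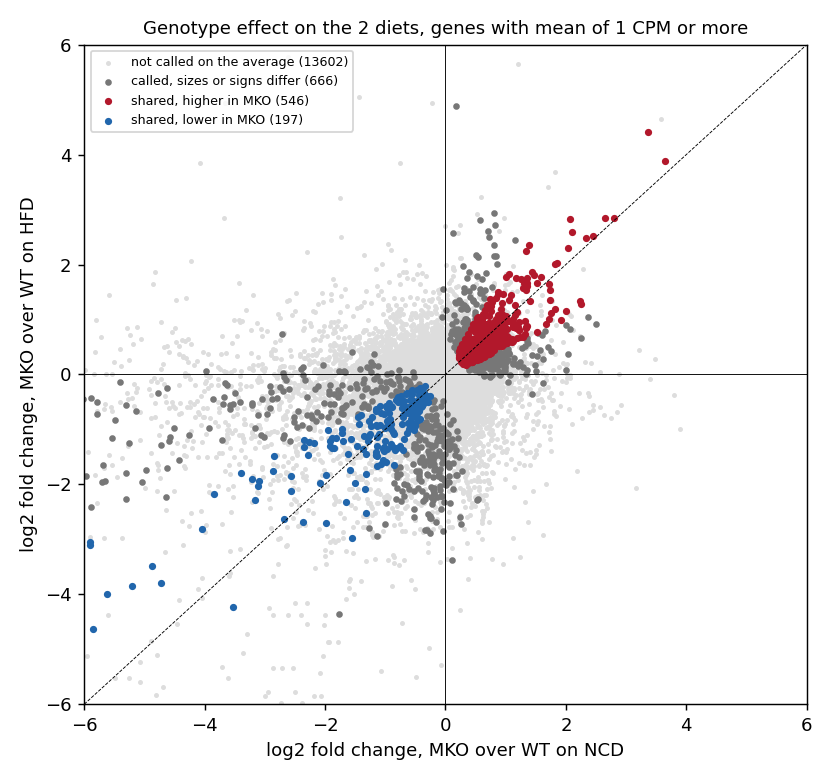
Log2 fold change of MKO over WT on HFD (vertical axis) against that on NCD (horizontal axis), 1 point per gene with a mean of at least 1 CPM. Red and blue points are the 546 shared genes higher and the 197 shared genes lower in MKO at that level, dark grey points the 666 called on the average with unequal sizes or signs, and light grey points the rest. The dashed line marks equal change, and 209 genes, 12 of them shared, lie beyond the axis limits of 6.

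The average passed the test in 820 genes that were higher in MKO (4.04%) and 653 that were lower (3.22%). Of these calls 55.7% were higher, against 41.1% of the calls by DESeq2 (1234 higher and 1769 lower), 45.1% by limma-voom (1547 and 1882) and 62.4% without MKO HFD replicate 2 (383 and 231), the library whose loss cost the most calls. The 551 shared genes that were higher became 338 without MKO HFD replicate 1, 252 without MKO HFD replicate 2, 279 without WT HFD replicate 2 and 359 without WT HFD replicate 3. The 219 that were lower became 123 and 85 without those 2 MKO libraries, 125, 103 and 141 without WT HFD replicates 1, 2 and 3, 138 without MKO NCD replicate 3, and 440 without MKO NCD replicate 2.

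The shared genes that were higher changed by modest amounts. Their median log2 fold change was 0.57 (quartiles 0.42 and 0.79), 78 of the 551 reached 1, and their median level was 76.2 CPM. The shared genes that were lower changed more from a lower level, with a median absolute log2 fold change of 1.09 (quartiles 0.62 and 2.19), 119 of 219 at 1 or more, and a median level of 18.2 CPM. In MKO NCD replicate 2, 40 of these 219 were at 0, against 1 of the 551. All 6 MKO libraries lay above all 6 WT libraries in 234 of the 551, where 1.51% of all genes did so, and below in 95 of the 219, where 1.44% of all genes did. The 3 MKO libraries lay above the 3 WT libraries of the same diet, on both diets, in 451 of the 551 (3.61% of all genes) and below in 163 of the 219 (3.34% of all genes). The choice of members used these values, so nothing is read from the counts. Since the sizes were matched by the rule, a test of the difference between diets was bound to pass seldom. It passed in 53 of all genes tested (0.261%), and in 0 of the 770 by edgeR and 0 by DESeq2 with adjusted p, in 1 by limma-voom, and in 12 by edgeR with unadjusted p.

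**Figure D2:**
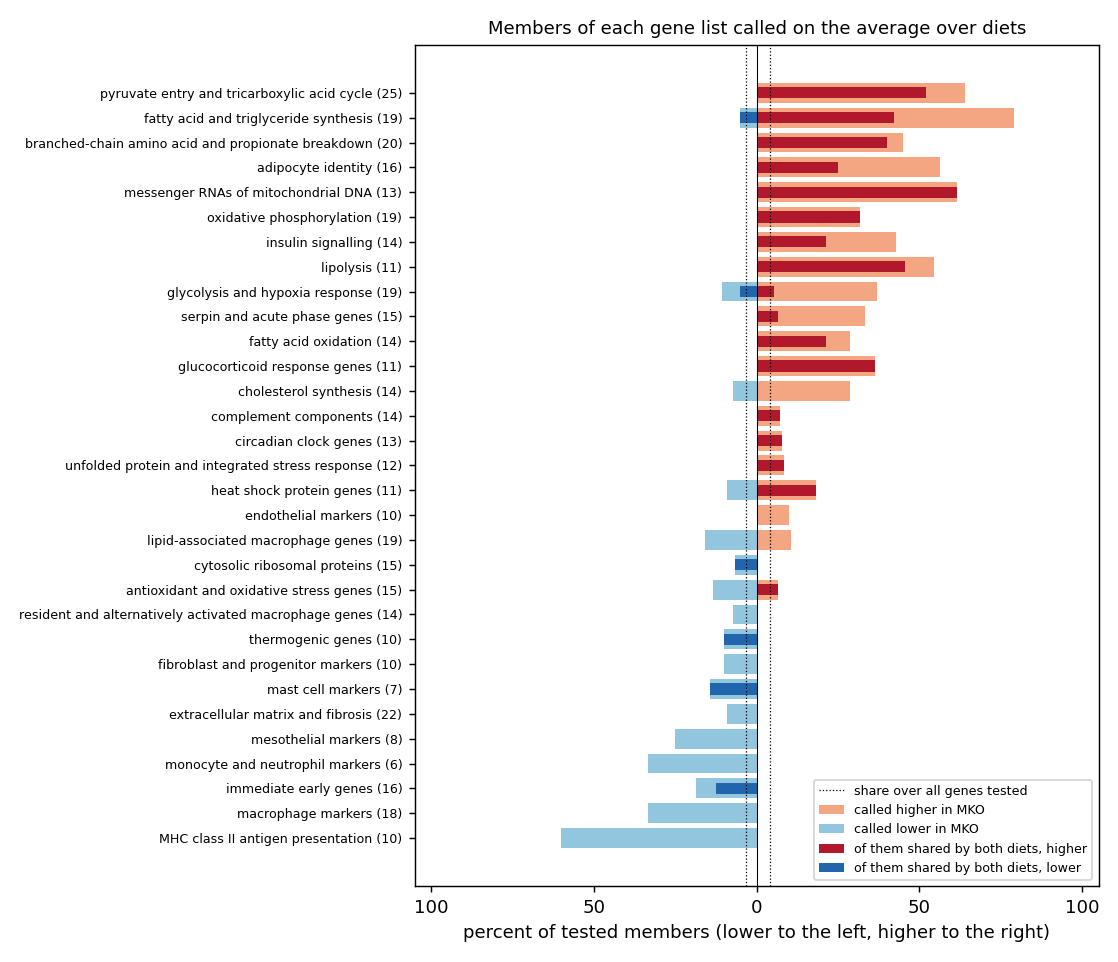
Percent of the tested members of each gene list (number tested in brackets) called on the average over diets, to the right where higher and to the left where lower in MKO. Pale bars are all members called, dark bars those shared by both diets, dotted lines the 4.04% and 3.22% over all genes tested, and lists with no member called are not drawn. Metabolic lists extend to the right, and macrophage and MHC class II lists extend to the left with no dark bar.

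Enzymes that bring pyruvate into mitochondria and turn the tricarboxylic acid cycle rose in MKO fat, 16 of 25 past the test. All 25, in a list put together after values were seen, had a positive average, and 13 were shared, with a median log2 fold change of 0.44, against -0.09 over all genes tested. Of all genes, 4.04% were called higher and 2.71% were shared and higher. The 16 became 10 without MKO HFD replicate 2 or without WT HFD replicate 2. Pcx encodes pyruvate carboxylase, which refills the cycle with oxaloacetate and feeds citrate export in fat cells. On HFD Pcx had 1199, 1336 and 1016 CPM in MKO, against 841, 719.6 and 644 CPM in WT. On NCD it had 1473, 2127 and 2030.2 CPM in MKO, against 696, 951 and 739 CPM in WT. Every MKO library lay above every WT library, with the highest 2 on NCD. Its averaged log2 fold change was 0.96 ± 0.13 (SE), adjusted p = 0.00243, made of 0.69 on HFD and 1.24 on NCD. Changes given below for other genes are likewise log2 fold changes averaged over the diets.

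Subunits of the pyruvate dehydrogenase complex, which makes acetyl-CoA from pyruvate, were among them. In MKO libraries Pdhb stood at 236, 219 and 151 CPM on HFD and 222, 259.8 and 306 CPM on NCD. In WT libraries Pdhb stood at 137, 115 and 135 CPM on HFD and 123, 134 and 127 CPM on NCD. Pdhb, the beta subunit of the first enzyme, was higher in each MKO library than in any WT library, and WT libraries of both diets covered a narrow range. Averaged over the diets, the log2 fold change was 0.84 ± 0.12 (SE), adjusted p = 0.0032. Pdha1, the alpha subunit of the same enzyme, rose by 0.61 ± 0.09 (SE), adjusted p = 0.00281. Pdhx, which holds the third enzyme to the core, rose by 0.79 ± 0.11 (SE), adjusted p = 0.00243, and Dld, the third enzyme itself, by 0.52 ± 0.09 (SE), adjusted p = 0.00955. Dlat, the core enzyme, passed on the average at 0.36 ± 0.08 (SE), adjusted p = 0.0185, but its changes of -0.03 on HFD and 0.74 on NCD kept it out of the shared set, and it lost its call without MKO HFD replicate 2 (adjusted p = 0.0613) or WT HFD replicate 2 (0.0574).

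Citrate synthase opens the cycle by joining acetyl-CoA to oxaloacetate. HFD libraries read 649, 640.3 and 528 CPM of Cs in MKO, against 498, 427 and 433 CPM in WT. NCD libraries read 587, 604 and 678 CPM of Cs in MKO, against 368, 382 and 345 CPM in WT. All 6 MKO values for Cs exceeded all 6 WT values. Its mean log2 fold change over both diets was 0.60 ± 0.08 (SE), adjusted p = 0.00271. Along the cycle, Sdha (a subunit of succinate dehydrogenase) rose by 0.49 ± 0.10 (SE), adjusted p = 0.015, and Mdh2 (malate dehydrogenase) by 0.46 ± 0.09 (SE), adjusted p = 0.0128. Mpc2, a subunit of the carrier that lets pyruvate in, rose by 0.65 ± 0.13 (SE), adjusted p = 0.0157. Idh2, which makes 2-oxoglutarate, did not pass at 0.23 ± 0.11 (SE), adjusted p = 0.257.

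**Figure D3:**
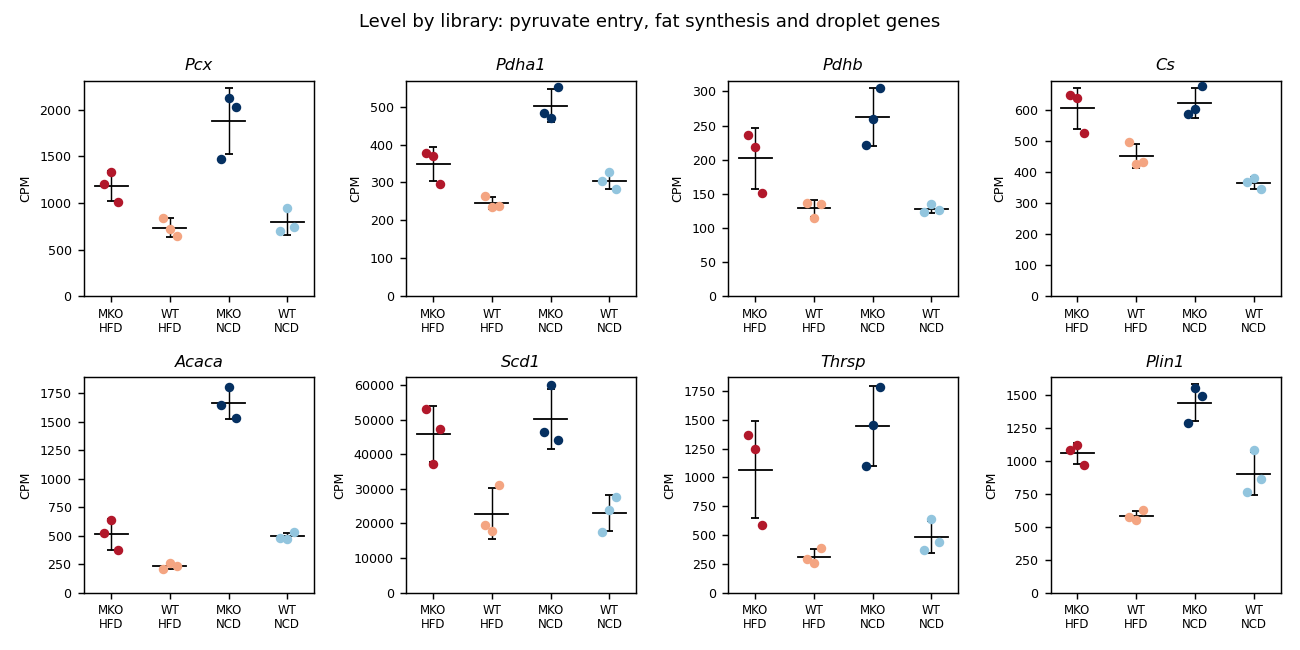
Level in CPM (vertical axis, from 0) of 8 shared genes in each of the 12 libraries, with MKO left of WT on HFD and then on NCD. Points are libraries, the line and bar are the mean and SD of 3. In all 8 panels the 3 MKO libraries of a diet lie above the 3 WT libraries of that diet.

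Genes of fat synthesis rose in MKO tissue on the average over diets, some by similar and some by unequal amounts. Of 19 genes of fatty acid and triglyceride synthesis, 15 were called higher and 1 lower, where 4.04% and 3.22% of all genes were, and 8 of the 15 were shared. In the tests of each diet by itself 8 were called higher on HFD and 15 on NCD, where 1.34% and 2.22% of all genes were. The list's median log2 fold change was 1.06 on the average, 0.75 on HFD and 1.36 on NCD. Acaca encodes acetyl-CoA carboxylase, which makes the malonyl-CoA that fatty acids are built from. The level of Acaca was 526, 634 and 371 CPM in MKO on HFD, against 212, 260.3 and 230.4 CPM in WT. Its level was 1645, 1809 and 1535 CPM in MKO on NCD, against 479, 474 and 529.7 CPM in WT. Its level was highest in MKO on NCD and lowest in WT on HFD, and the genotypes did not overlap on either diet. Over both diets this came to a log2 fold change of 1.44 ± 0.13 (SE), adjusted p = 0.000388.

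Thrsp, a regulator of lipogenesis known as Spot 14, changed by 1.77 on HFD and 1.59 on NCD. On HFD Thrsp had 1365, 1249 and 587 CPM in MKO, against 292, 259.6 and 385 CPM in WT. On NCD it had 1100.4, 1452 and 1787 CPM in MKO, against 367, 639 and 438 CPM in WT. MKO HFD replicate 3 lay well below the other 2 of its group but above the WT libraries on HFD. This gave an averaged log2 fold change of 1.68 ± 0.23 (SE), adjusted p = 0.00271. Pnpla3, a lipid droplet hydrolase controlled by the same feeding signals, rose by 1.68 ± 0.21 (SE), adjusted p = 0.00183, and all 6 MKO libraries were above all 6 WT libraries. Scd1, the desaturase that makes oleate, rose by 1.06 ± 0.18 (SE), adjusted p = 0.00772, again without overlap. The transcription factors that drive this pathway rose as well: Srebf1 by 0.81 ± 0.14 (SE), adjusted p = 0.00844, and Mlxipl, which encodes the glucose-sensing ChREBP, by 0.94 ± 0.16 (SE), adjusted p = 0.00669.

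For the assembly of triglyceride, Gpam, which adds the first fatty acid to glycerol phosphate, rose by 0.82 ± 0.10 (SE), adjusted p = 0.00176, and Lpin1, which removes the phosphate later on, by 0.74 ± 0.10 (SE), adjusted p = 0.00204. Gpd2, the mitochondrial glycerol phosphate dehydrogenase, rose by 0.96 ± 0.11 (SE), adjusted p = 0.00118. The enzymes left out of the shared set for their sizes were called on the average: Fasn had 0.91 on HFD and 2.49 on NCD, Acly 0.67 on HFD and 2.25 on NCD, Acss2 1.04 on HFD and 2.37 on NCD and Dgat2 0.75 on HFD and 1.53 on NCD. For Me1, which makes NADPH for this pathway, the difference between diets passed the test (HFD effect minus NCD effect -1.66 on the log2 scale, adjusted p = 0.0261), and its HFD effect of 0.38 did not pass (adjusted p = 0.325). The member called lower, Elovl3, an elongase, read at most 0.13 CPM in every NCD library. It lost its call, at adjusted p = 0.0575 to 0.113, without any 1 library other than MKO NCD replicate 2 and WT NCD replicate 1.

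Genes of the droplet surface and of fat cell identity rose, though not all of them. Of 16 adipocyte identity genes, 9 were called higher and 4 were shared, with a median of 0.67, where 4.04% of all genes were called higher and 2.71% shared and higher. Plin1 coats the droplet and holds back its breakdown. In MKO libraries Plin1 stood at 1081, 1114 and 966 CPM on HFD and 1283, 1546 and 1489 CPM on NCD. In WT libraries Plin1 stood at 575, 549.7 and 625 CPM on HFD and 763, 1079 and 858 CPM on NCD. On each diet the genotypes did not overlap, while WT NCD replicate 2 reached the level of MKO on HFD. The averaged log2 fold change was 0.77 ± 0.10 (SE), adjusted p = 0.00204. Plin4, another coat protein, rose by 0.79 ± 0.09 (SE), adjusted p = 0.000959, with all 6 MKO libraries above all 6 WT libraries. Pparg, the master regulator of the fat cell, rose by 0.70 ± 0.13 (SE), adjusted p = 0.00984. Lipe, hormone-sensitive lipase, rose by 0.64 ± 0.11 (SE), adjusted p = 0.00914, and Aoc3, an amine oxidase abundant on fat cells, by 0.80 ± 0.10 (SE), adjusted p = 0.00172.

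Other defining products of fat cells did not pass: Adipoq (adiponectin) stood at 0.51 ± 0.19 (SE), adjusted p = 0.133, with adjusted p = 0.0224 without WT NCD replicate 2, and Fabp4, a fatty acid binding protein, at 0.24 ± 0.16 (SE), adjusted p = 0.422. The 16 identity genes summed to 38719, 35533 and 34462 CPM in MKO on HFD, where WT libraries gave 29866, 23970.1 and 28836 CPM. Sums on NCD came to 39442, 50562 and 45773 CPM in MKO and 26516, 45292 and 28875 CPM in WT. The sums did not overlap on HFD and did on NCD, through WT NCD replicate 2. They moved in the same direction as the metabolic lists above and below, and their part in those results was not tested.

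Hormone signalling genes moved in smaller numbers against a background of 4.04% of all genes called higher and 2.71% shared and higher. Of 14 insulin signalling genes 6 were called higher and 3 were shared, falling to 3 called without MKO HFD replicate 2 or without WT HFD replicate 2. Foxo1, a transcription factor held in check by insulin, rose by 0.56 ± 0.10 (SE), adjusted p = 0.00761, without overlap between the 6 MKO and 6 WT libraries. Of 11 lipolysis genes 6 were called higher and 5 were shared, with 3 called in each of the fits without MKO HFD replicate 1, MKO HFD replicate 2, WT HFD replicate 2, WT HFD replicate 3 or WT NCD replicate 3. Of 11 glucocorticoid response genes 4 were called higher and all 4 were shared, with 2 called without MKO HFD replicate 1, MKO HFD replicate 2, WT HFD replicate 2 or WT HFD replicate 3. Among them Tsc22d3, which encodes the glucocorticoid-induced leucine zipper, rose by 0.48 ± 0.08 (SE), adjusted p = 0.00783, and Zbtb16, a zinc finger factor, by 0.92 ± 0.15 (SE), adjusted p = 0.00713. The list went both ways, with 7 of 11 averages positive. Among its other members, Sgk1, Dusp1, Mt1 and Mt2 had averages of -0.46, -0.41, -0.54 and -0.77, none past the test with adjusted p, and Dusp1 was called lower on NCD. By other counts 4 of the 11 were lower by edgeR with unadjusted p, 3 by DESeq2 and 3 by limma-voom. Gbe1, which branches glycogen, had the smallest p of the protein-coding members. HFD libraries read 107, 108 and 87.1 CPM of Gbe1 in MKO, against 60.6, 52.5 and 55.7 CPM in WT. NCD libraries read 144, 162 and 157 CPM of Gbe1 in MKO, against 65.2, 68.2 and 71.6 CPM in WT. Every MKO library exceeded every WT library, and MKO on NCD was the highest group. Averaged over the diets, the log2 fold change was 1.01 ± 0.08 (SE), adjusted p = 0.000191.

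Transcripts of the respiratory chain were higher by small amounts from both genomes. Of 19 nuclear genes of oxidative phosphorylation all 19 had a positive average, 6 were called and all 6 were shared, with a median of 0.36, against the same 4.04% and 2.71% of all genes. Among the 13 messenger RNAs made from mitochondrial DNA, listed after values were seen, all 13 were positive and 8 were called and shared, with a median of 0.57. ND5, a subunit of complex I, was the one with the smallest p. The level of ND5 was 9877, 10719 and 7235 CPM in MKO on HFD, against 6339, 4564 and 5253 CPM in WT. Its level was 7554, 7791 and 9252 CPM in MKO on NCD, against 5283, 4568 and 5475 CPM in WT. All 6 MKO libraries exceeded all 6 WT libraries, with MKO HFD replicate 3 the lowest of the 6. Its mean log2 fold change over both diets was 0.73 ± 0.13 (SE), adjusted p = 0.00809. These RNAs are cut from shared precursors and ND4L overlaps ND4, so that their values are not independent. Reads can also be shared with nuclear copies of mitochondrial DNA.

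The 13 mitochondrial messages summed to 133612, 138432 and 91303 CPM in MKO on HFD, where WT libraries gave 91519, 67390.5 and 81651 CPM. On NCD their sums were 83832, 86927 and 111222 CPM in MKO, and WT libraries gave 72611, 62730.4 and 64816 CPM. MKO HFD replicate 3 lay below WT HFD replicate 1, and on NCD the genotypes did not overlap. Both counts depended on single libraries: the 8 mitochondrial calls became 2 without MKO HFD replicate 2, 3 without MKO HFD replicate 1, WT HFD replicate 2, WT HFD replicate 3 or MKO NCD replicate 3, 4 without WT NCD replicate 2 or 3, and 13 without MKO HFD replicate 3. The 6 nuclear calls became 1 without MKO HFD replicate 1, MKO HFD replicate 2 or WT HFD replicate 2, 2 without WT HFD replicate 3, WT NCD replicate 1 or WT NCD replicate 3, 3 without MKO NCD replicate 3, and 12 without WT NCD replicate 2. Hspd1, the chaperonin of the mitochondrial matrix, was steadier. On HFD Hspd1 had 437, 498 and 410.4 CPM in MKO, against 326, 332 and 322 CPM in WT. On NCD it had 369, 369 and 368 CPM in MKO, against 233, 257 and 257 CPM in WT. The 3 MKO values on NCD were nearly equal and lay above all WT values of both diets. Over both diets this came to a log2 fold change of 0.51 ± 0.07 (SE), adjusted p = 0.00223.

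Genes for the breakdown of branched-chain amino acids and propionate, which delivers carbon to the same cycle, moved in the same direction. Of 20 genes in a list put together after values were seen, all 20 were positive, 9 were called and 8 were shared, with a median of 0.53, where 4.04% of all genes were called higher and 2.71% shared. Mmut encodes methylmalonyl-CoA mutase, the last step into the cycle. In MKO libraries Mmut stood at 169, 171 and 174 CPM on HFD and 174, 201 and 171 CPM on NCD. In WT libraries Mmut stood at 115, 93.7 and 114 CPM on HFD and 111, 120.4 and 123 CPM on NCD. MKO values stayed within a narrow range on HFD and none overlapped with WT. This gave an averaged log2 fold change of 0.65 ± 0.08 (SE), adjusted p = 0.00132. Mccc1, a subunit of methylcrotonyl-CoA carboxylase in leucine breakdown, rose by 0.82 ± 0.13 (SE), adjusted p = 0.00518, and Pcca, a subunit of propionyl-CoA carboxylase, by 0.59 ± 0.10 (SE), adjusted p = 0.0088. The 9 calls became 5 without MKO HFD replicate 1, 4 without MKO HFD replicate 2, 5 without WT HFD replicate 2 and 16 without WT NCD replicate 2. Fatty acid oxidation had 4 of 14 genes called, 3 of them shared, and 0 called without MKO HFD replicate 1, MKO HFD replicate 2, WT HFD replicate 2, WT HFD replicate 3 or MKO NCD replicate 3, 1 without WT NCD replicate 1, and 2 without MKO HFD replicate 3, MKO NCD replicate 2 or WT NCD replicate 3. Of 22 mitophagy and autophagy genes other than Bnip3, 0 were called by edgeR with adjusted p and 3 with unadjusted p, 2 by DESeq2 and 1 by limma-voom, and their median was 0.00.

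Several of the genes that fell are known from immune cells. Macrophage marker sums were lower in MKO on HFD and overlapped between the genotypes on NCD. Values for these and for markers of other immune cells are given further on. Gcnt1 builds branched O-glycans on cell surfaces and had the smallest p among the shared genes that fell. HFD libraries read 6.63, 4.86 and 7.64 CPM of Gcnt1 in MKO, against 33.1, 40.4 and 19.7 CPM in WT. NCD libraries read 5.69, 6.37 and 3.92 CPM of Gcnt1 in MKO, against 48.6, 64.9 and 29.5 CPM in WT. The highest MKO library stayed below the lowest WT library. The averaged log2 fold change was -2.72 ± 0.25 (SE), adjusted p = 0.000525. The highest values of Gcnt1, 64.9 and 48.6 CPM, were in WT on NCD, where epididymis markers were high. The part of epididymal RNA in its fall on NCD was not tested. Ptpn22 encodes a phosphatase of lymphocytes and myeloid cells that dampens receptor signalling. The level of Ptpn22 was 3.50, 3.47 and 5.50 CPM in MKO on HFD, against 20.8, 26.1 and 15.5 CPM in WT. Its level was 3.81, 4.64 and 2.19 CPM in MKO on NCD, against 9.54, 9.70 and 14.1 CPM in WT. WT on HFD was the highest group, and no MKO library overlapped with a WT library. Averaged over the diets, the log2 fold change was -1.98 ± 0.24 (SE), adjusted p = 0.00159.

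Egr2 is an immediate early transcription factor that is also induced in activated macrophages and T cells. On HFD Egr2 had 2.38, 1.61 and 7.13 CPM in MKO, against 21.4, 31.4 and 16.2 CPM in WT. On NCD it had 1.72, 3.53 and 1.56 CPM in MKO, against 19.9, 10.3 and 13.7 CPM in WT. Every MKO library was below every WT library, and MKO HFD replicate 3 was the highest of the MKO libraries. Its mean log2 fold change over both diets was -2.66 ± 0.40 (SE), adjusted p = 0.00441. Of 16 immediate early genes, which also rise with tissue handling, 3 were called lower and 2 were shared, where 3.22% and 1.08% of all genes were. The 3 became 1 without MKO HFD replicate 2, WT HFD replicate 2 or MKO NCD replicate 3, and 6 without MKO NCD replicate 2. The other shared one, Junb, averaged -1.61 ± 0.35 (SE), adjusted p = 0.0211, and lost its call without MKO HFD replicate 2 (adjusted p = 0.0665), WT HFD replicate 2 (0.0607) or MKO NCD replicate 3 (0.0529). The 16 immediate early genes summed to 426, 361 and 406 CPM in MKO on HFD, where WT libraries gave 497, 682 and 492 CPM. The NCD sums were 307, 354 and 311 CPM in MKO and 604, 468 and 416 CPM in WT. The genotypes did not overlap on either diet. The part of the list as a whole in the fall of Egr2 was not tested.

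Ctsh, a lysosomal cysteine protease, fell by a smaller amount. In MKO libraries Ctsh stood at 55.6, 34.2 and 61.4 CPM on HFD and 39.4, 48.2 and 36.2 CPM on NCD. In WT libraries Ctsh stood at 126, 135 and 123 CPM on HFD and 68.4, 86.9 and 60.9 CPM on NCD. On each diet the genotypes were apart, while the highest MKO value on HFD exceeded the lowest WT value on NCD. Over both diets this came to a log2 fold change of -1.08 ± 0.15 (SE), adjusted p = 0.00269. Pla2g7, the lipoprotein-associated phospholipase of macrophages, fell by 1.74 ± 0.27 (SE), adjusted p = 0.00513, and Hmga1, a chromatin protein of dividing cells, fell by 2.26 ± 0.34 (SE), adjusted p = 0.00441. Tmsb4x, which binds actin and is abundant in blood cells, averaged -0.75 ± 0.11 (SE), adjusted p = 0.00377. Hk1, a hexokinase, averaged -0.74 ± 0.12 (SE), adjusted p = 0.006, whereas Vegfa, on the same list of glycolysis and hypoxia genes, was the list's shared member that rose (0.75 ± 0.14 (SE), adjusted p = 0.0126).

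**Figure D4:**
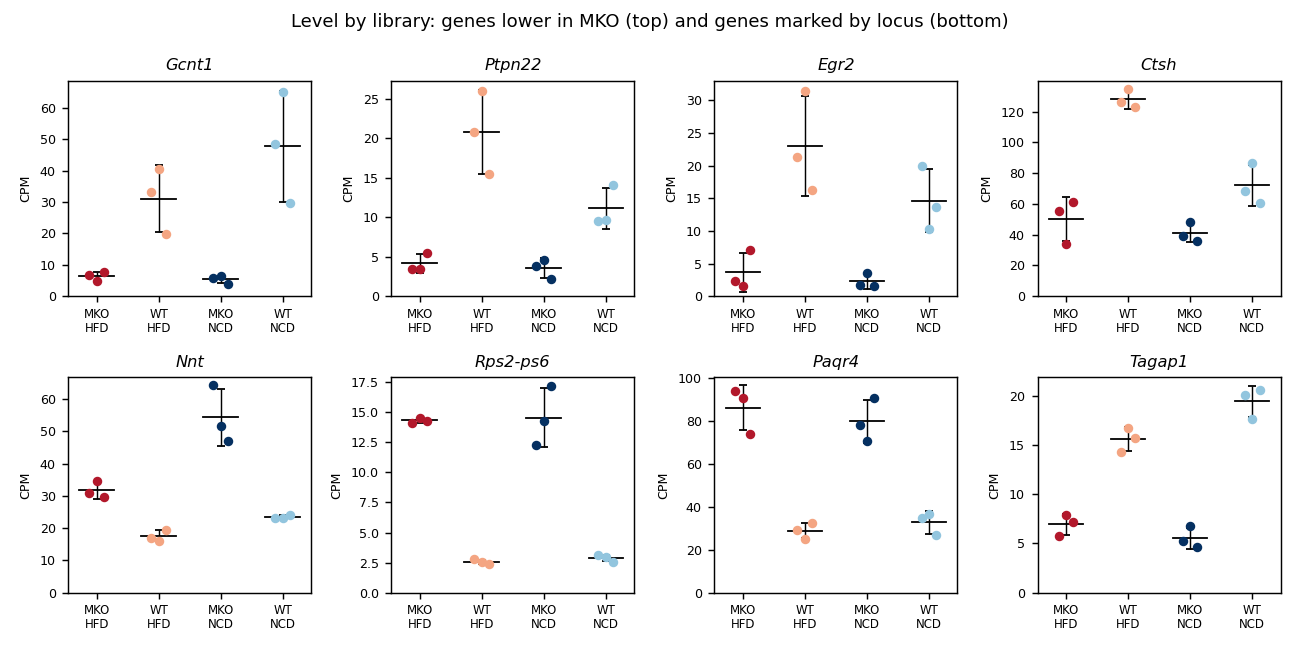
Level in CPM (vertical axis, from 0) of 4 shared genes lower in MKO (top) and of 4 shared genes described for their locus or copies (bottom) in each of the 12 libraries, with MKO left of WT on HFD and then on NCD. Points are libraries, the line and bar are the mean and SD of 3. Within each diet the genotypes are apart in every panel.

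The 18 macrophage markers had medians of -1.02 on the average, -2.14 on HFD, where 14 were called lower, and -0.11 on NCD, and 0 were shared. Of all genes tested, 2.24% were called lower on HFD, 3.22% were called lower on the average and 1.08% were shared and lower. The 0 of 18 is near that last share. On the average 6 were called lower by edgeR with adjusted p and 17 with unadjusted p, and 17 each by DESeq2 and limma-voom. The edgeR count ran to 0 without MKO HFD replicate 1 or 2, WT HFD replicate 1 or 2, or MKO NCD replicate 3, to 1 without WT NCD replicate 2, 2 without MKO NCD replicate 1 and 3 without WT HFD replicate 3, and to 13 without MKO HFD replicate 3 and 11 without WT NCD replicate 1. The 18 macrophage markers summed to 972, 677 and 1665 CPM in MKO on HFD, where WT libraries gave 4486, 6178 and 3889.7 CPM. Sums on NCD came to 874, 1049 and 750.1 CPM in MKO and 577, 1396 and 803 CPM in WT. They were lower in MKO on HFD with no overlap and overlapped on NCD. Adgre1, which encodes the macrophage antigen F4/80, had -2.56 on HFD and 0.41 on NCD. The markers' part in the changes of the genes above was not tested.

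Monocyte and neutrophil markers summed lower in MKO on both diets, while their median log2 fold change was -1.59 on HFD and -0.31 on NCD. The 7 monocyte and neutrophil markers of the table summed to 54.3, 52.8 and 69.3 CPM in MKO on HFD, where WT libraries gave 175, 178 and 157 CPM. On NCD their sums were 52.0, 80.3 and 39.0 CPM in MKO, and WT libraries gave 279, 223 and 90.4 CPM. The genotypes did not overlap on either diet. Of the 6 of them tested 2 were called lower on the average and none was shared, where 3.22% and 1.08% of all genes were. The 2 were Plac8, a protein of myeloid and epithelial cells, and S100a9, a calcium-binding protein of neutrophils. Plac8 had log2 fold changes of -1.73 on HFD and -4.98 on NCD, and S100a9 was at 0 in the 3 MKO libraries on NCD and below 1 CPM in all 12 libraries. The 2 became 1 without MKO HFD replicate 2 or WT HFD replicate 3. A sum follows its most abundant members, and the part of Plac8 or of epididymal RNA in the NCD sums was not tested. The 7 B cell markers summed to 1024, 1809.8 and 1244 CPM in MKO on HFD, where WT libraries gave 872, 769 and 1405 CPM. The NCD sums were 409, 149.6 and 358 CPM in MKO and 252, 152 and 289 CPM in WT. These sums overlapped on both diets. The median log2 fold change of the 7 was -2.09 on the average, -2.24 on HFD and -2.20 on NCD, and 1 average was positive. By edgeR 0 of the 7 were called with adjusted p and 4 were lower with unadjusted p, DESeq2 called 4 lower, and limma-voom called 1 lower and 1 higher. The 12 T and NK cell markers had medians of -0.58 on the average, -0.67 on HFD and -0.61 on NCD. Their sums overlapped on both diets. By edgeR 0 of the 12 were called with adjusted or unadjusted p, and 0 by DESeq2 or limma-voom. With adjusted p, 0 of 12 is near the 3.22% of all genes called lower. The part of these cells in the falls of Gcnt1, Ptpn22, Egr2 and Ctsh was not tested on either diet.

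Of all genes tested, 3.22% were called lower on the average and 1.08% were shared and lower, so that 0 shared in a short list is near the background. Of 10 MHC class II genes 6 were called lower and 0 were shared. The 6 became 0 without MKO HFD replicate 2, 1 without MKO HFD replicate 1 or WT HFD replicate 2, 2 without MKO NCD replicate 1 or 3, and 3 without WT HFD replicate 1 or WT NCD replicate 2. Of 22 extracellular matrix genes 2 were called lower and 0 were shared, with medians of -1.11 on HFD and 0.38 on NCD. With unadjusted p edgeR had 11 lower and 2 higher, DESeq2 called 10 lower, and limma-voom called 9 lower and 2 higher. The 2 became 5 without MKO HFD replicate 3, 4 without MKO NCD replicate 2 or WT NCD replicate 1, and 1 without WT HFD replicate 1 or 2 or MKO NCD replicate 3.

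Other material moved with the genotype on NCD. The epididymis sums given above were near 0 in all 6 HFD libraries, at most 0.836 CPM, and high in WT on NCD. The 8 mesothelial markers summed to 165, 77.3 and 74.2 CPM in MKO on HFD, where WT libraries gave 61.1, 149 and 173 CPM. Sums on NCD came to 64.0, 340.2 and 69.4 CPM in MKO and 339.7, 422 and 286 CPM in WT. WT on NCD was high, and so was MKO NCD replicate 2. Of the 8, Krt8 and Krt18, keratins also of other simple epithelia, were called lower on the average, where 3.22% of all genes were. The log2 fold changes were -0.98 on HFD and -3.93 on NCD for Krt8 and -1.21 on HFD and -4.60 on NCD for Krt18. The 2 became 1 in every fit without 1 library other than those without MKO NCD replicate 1 or 2. The 10 skeletal muscle markers summed to 27.1, 17.4 and 26.4 CPM in MKO on HFD, where WT libraries gave 21.2, 20.5 and 18.8 CPM. On NCD their sums were 19.9, 14.3 and 14.8 CPM in MKO, and WT libraries gave 343, 64.2 and 12.5 CPM. WT NCD replicates 1 and 2 stood above every other library.

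Besides Gcnt1, the genes Basp1, Wwc1 and Chrna2 were shared and had a WT level on NCD above that on HFD. Wwc1 averaged 1.51 ± 0.712 CPM in MKO on HFD, against 5.28 ± 0.638 CPM in WT, and 4.27 ± 2.78 CPM in MKO on NCD, against 44.9 ± 18.9 CPM in WT (SD, n = 3 each). Chrna2 averaged 1.51 ± 0.834 CPM in MKO on HFD, against 6.13 ± 2.50 CPM in WT, and 3.67 ± 1.11 CPM in MKO on NCD, against 31.9 ± 10.9 CPM in WT (SD, n = 3 each). Basp1 averaged 6.95 ± 2.39 CPM in MKO on HFD, against 25.9 ± 7.10 CPM in WT, and 5.91 ± 5.01 CPM in MKO on NCD, against 54.8 ± 16.2 CPM in WT (SD, n = 3 each). In each of the 3, WT on NCD was the highest group and the genotypes did not overlap on either diet. Their averages were -2.60 ± 0.36 (SE), adjusted p = 0.00269 for Wwc1, -2.57 ± 0.34 (SE), adjusted p = 0.00221 for Chrna2 and -2.56 ± 0.37 (SE), adjusted p = 0.00377 for Basp1. The part of epididymal, mesothelial or muscle RNA in their fall on NCD was not tested.

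Mast cell markers had negative averages in 6 of 7 genes. Of the 7, 1 was called and shared, 3 had all 6 MKO libraries below all 6 WT libraries, and the median was -1.66. Of all genes tested, 3.22% were called lower, 1.08% were shared and lower, and 1.44% had all 6 MKO libraries below all 6 WT libraries. Cma1 encodes mast cell chymase. HFD libraries read 3.94, 2.09 and 2.19 CPM of Cma1 in MKO, against 8.45, 12.8 and 6.08 CPM in WT. NCD libraries read 5.29, 4.43 and 3.66 CPM of Cma1 in MKO, against 10.7, 22.5 and 6.88 CPM in WT. MKO values did not exceed 5.29 CPM and WT values did not fall below 6.08 CPM. This gave an averaged log2 fold change of -1.66 ± 0.33 (SE), adjusted p = 0.0154, and adjusted p was 0.0515 without MKO HFD replicate 2. Prss34, a serine protease of mast cells and basophils, was at 0 in all 6 MKO libraries and between 0.210 and 0.834 CPM in the 6 WT libraries. Its gene lies on chromosome 17, other shared genes of which are described further on. The 7 mast cell markers summed to 37.4, 25.04 and 31.7 CPM in MKO on HFD, where WT libraries gave 46.4, 71.3 and 45.3 CPM. The NCD sums were 42.6, 27.96 and 31.0 CPM in MKO and 71.9, 104 and 49.4 CPM in WT. The genotypes did not overlap on either diet. Without MKO HFD replicate 2, 0 of the 7 were called, and without MKO NCD replicate 2, 4 were. DESeq2 called 4 and limma-voom 6.

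Several genes were detected in libraries of 1 genotype and in none of the other, and these were chosen for naming after their values were seen. Gm30783, a long noncoding RNA of chromosome 14, had 2108 counts over the 6 MKO libraries and 0 over the 6 WT libraries, which is at least 788-fold higher with 3 counts placed in the WT group. Its MKO levels ran from 2.96 to 15.7 CPM. Besides Prss34, the genes at 0 in 6 MKO libraries and above 0 in 6 WT libraries were Hoxd1, Ptprn, Ankrd22 and Slc4a5. Their WT levels were low: 0.0391 to 0.320 CPM for Hoxd1, 0.0260 to 1.33 CPM for Ptprn, 0.107 to 8.43 CPM for Ankrd22 and 0.0534 to 3.71 CPM for Slc4a5. Hoxd1 lost its call without MKO HFD replicate 1 (adjusted p = 0.0506), MKO HFD replicate 2 (0.0569), WT HFD replicate 2 (0.0637) or WT HFD replicate 3 (0.0552), and Ptprn without WT HFD replicate 2 (0.0526).

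Processed copies of the ribosomal protein gene Rps2 were among the shared genes with the smallest p. The level of Rps2-ps6 was 14.1, 14.5 and 14.3 CPM in MKO on HFD, against 2.77, 2.51 and 2.40 CPM in WT. Its level was 12.2, 14.2 and 17.2 CPM in MKO on NCD, against 3.11, 2.98 and 2.57 CPM in WT. The 6 MKO libraries formed one band and the 6 WT libraries another, with diet making little difference. The averaged log2 fold change was 2.41 ± 0.16 (SE), adjusted p = 0.000168. Rps2-ps13 on the X chromosome rose by 2.16 ± 0.18 (SE), adjusted p = 0.000293 and Rps2-ps8 on chromosome 17 by 2.74 ± 0.29 (SE), adjusted p = 0.000849. These copies are nearly identical to their parent, so that reads can be assigned to either and the values are uncertain. On HFD Rps2 had 262, 249 and 273 CPM in MKO, against 347, 343 and 355 CPM in WT. On NCD it had 244, 285 and 284 CPM in MKO, against 338, 527 and 296 CPM in WT. Parent Rps2 lies on chromosome 17 (24718121 to 24721927, GRCm38.p6), between Rnps1 and Uhrf1bp1, which are given below. It was lower in all 6 MKO libraries than in all 6 WT libraries. Its average of -0.46 ± 0.13 (SE), adjusted p = 0.052 did not pass. It did pass without WT NCD replicate 2 (adjusted p = 0.0334) or 3 (0.0213), with RLE size factors, and by DESeq2 and limma-voom.

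Nnt and a stretch of chromosome 17 also divided the genotypes. Nnt encodes the transhydrogenase of the inner mitochondrial membrane that makes NADPH. In MKO libraries Nnt stood at 30.9, 34.6 and 29.6 CPM on HFD and 64.3, 51.7 and 47.2 CPM on NCD. In WT libraries Nnt stood at 17.1, 15.9 and 19.5 CPM on HFD and 23.1, 23.2 and 24.2 CPM on NCD. Both genotypes were higher on NCD, and within each diet MKO was well above WT. Averaged over the diets, the log2 fold change was 1.03 ± 0.10 (SE), adjusted p = 0.000549. On chromosome 17, Tagap1 (positions 6954965 to 6961565, GRCm38.p6) and Rnaset2b (6978860 to 6998193) lay in the first 10 Mb and changed by -1.49 ± 0.14 (SE), adjusted p = 0.00056 and by -0.98 ± 0.12 (SE), adjusted p = 0.00183. Dynlt1b (6429530 to 6440500), a dynein light chain, and Tmem181b-ps (6439002 to 6450994) lay in the same 10 Mb and rose by 1.36 ± 0.17 (SE), adjusted p = 0.00183 and 1.93 ± 0.16 (SE), adjusted p = 0.000293. All 4 have near-identical copies or neighbours that can share reads, and their values are uncertain for that reason.

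Farther along the same chromosome, Paqr4 (23736186 to 23740899), a membrane receptor of the progestin and adipoQ receptor family, was among the clearest members. HFD libraries read 93.7, 90.5 and 74.0 CPM of Paqr4 in MKO, against 29.4, 25.2 and 32.2 CPM in WT. NCD libraries read 78.0, 70.6 and 90.7 CPM of Paqr4 in MKO, against 34.6, 36.8 and 26.6 CPM in WT. MKO and WT formed separate bands that were alike on the 2 diets. Its mean log2 fold change over both diets was 1.43 ± 0.11 (SE), adjusted p = 0.000235. Rnps1 (24414646 to 24425898), a splicing factor, fell by 1.09 ± 0.12 (SE), adjusted p = 0.00118, and Uhrf1bp1 (27856507 to 27900040), a lipid transfer protein, rose by 1.36 ± 0.14 (SE), adjusted p = 0.000788. Between these stretches, the predicted genes Gm3435 (15009840 to 15022449), LOC115488787 (15012763 to 15024545) and Gm35343 (15044141 to 15056193) rose by 1.20 ± 0.12, 1.80 ± 0.18 and 1.65 ± 0.16 (log2, SE). The first 2 overlap, so that their reads may not be told apart, and all 3 were chosen after values were seen.

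By chromosome, shared genes made up 23.5% of the 34 genes tested on mitochondrial DNA, all 8 of them higher, and 5.60% of 1000 genes on chromosome 17, with 37 higher and 19 lower. Chromosomes 15 and 19 followed at 5.45% and 5.42%, and the share over all genes was 3.79%. Chromosome 8 had 2.24%, and 0 of 10 genes on the Y chromosome were shared. In windows of 10 Mb with at least 50 genes tested, the median share was 3.41% over 175 windows. The first window of chromosome 17 held 7 shared genes of 63, or 11.1%. On the same chromosome, 10 to 20 Mb held 7 of 84 (8.33%) and 20 to 30 Mb held 19 of 230 (8.26%). From 30 to 40 Mb it held 7 of 239 (2.93%). The highest share was 11.8%, in 9 of 76 genes of chromosome 19 between 30 and 40 Mb. These shares were computed after values were seen and carry no test.

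**Figure D5:**
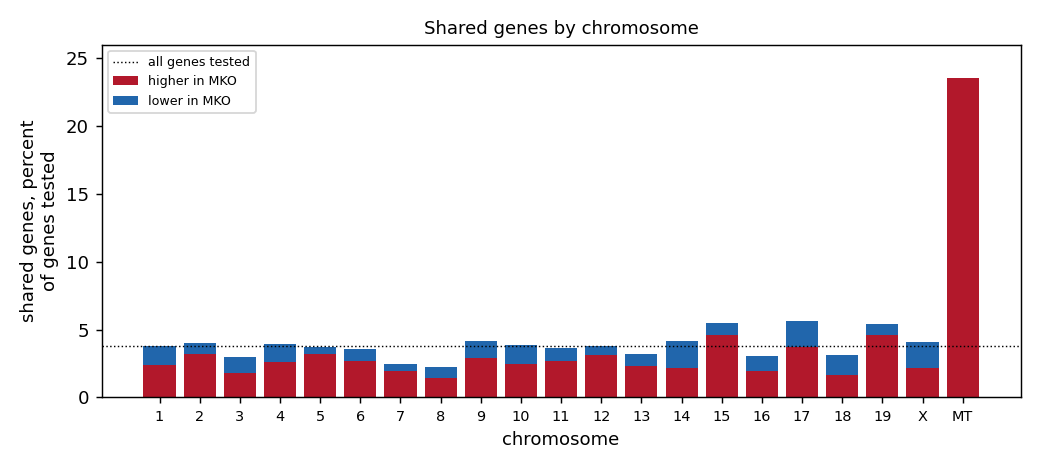
Shared genes as a percent of the genes tested on each chromosome (vertical axis), split into higher (red) and lower (blue) in MKO, with chromosome Y (10 genes tested, 0 shared) not drawn. The dotted line is the 3.79% over all genes tested. Mitochondrial DNA (MT) stands at 23.5%, and chromosome 17 has the highest share of the nuclear chromosomes drawn.

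The remaining lists had few shared members or none, where 2.71% of all genes were shared and higher and 1.08% shared and lower. Shared members that rose were 1 of 14 complement genes (C6), 1 of 15 antioxidant genes (Nnt), 1 of 12 unfolded protein and integrated stress response genes (Asns), 1 of 13 circadian clock genes (Cry2), 1 of 15 serpin and acute phase genes (Serpina3c) and 2 of 11 heat shock protein genes (Hspd1 and Hspb1). C6, a part of the membrane attack complex, averaged 0.85 ± 0.19 (SE), adjusted p = 0.0234, Asns, which makes asparagine, 0.56 ± 0.14 (SE), adjusted p = 0.0341, and Cry2, a repressor of the clock, 0.55 ± 0.12 (SE), adjusted p = 0.0246. All 3 lost their call without MKO HFD replicate 2 (adjusted p = 0.0643 for C6, 0.0952 for Asns and 0.0715 for Cry2) or without WT HFD replicate 2 (0.0618, 0.0906 and 0.0654 in that order), C6 also without MKO HFD replicate 1 (0.0601) or WT HFD replicate 1 (0.0538), and Cry2 also without WT NCD replicate 2 (0.0510). Asns did so without 5 further libraries, at 0.0802 without MKO HFD replicate 1 and 0.0560 to 0.0722 without WT HFD replicate 3, MKO NCD replicate 3, WT NCD replicate 1 or WT NCD replicate 3. Serpina3c lost its call without MKO HFD replicate 2 (0.0575), and Hspb1 without MKO HFD replicate 1 (0.0622), WT HFD replicate 1 (0.0568), WT HFD replicate 2 (0.0717) or WT NCD replicate 2 (0.0544). Shared members that fell were 1 of 15 cytosolic ribosomal protein genes, Rpl10 (-0.49 ± 0.09 (SE), adjusted p = 0.011), which also has processed copies, and 1 of 10 thermogenic genes, which was Elovl3 again. Among the 15 ribosomal protein genes 1 average was positive, 9 were lower by edgeR with unadjusted p, 9 by DESeq2, 7 by limma-voom and 4 with RLE size factors, and the 1 called became 2 without WT NCD replicate 2 and 3 without WT NCD replicate 3. None of 14 cholesterol synthesis genes was shared, though 4 were called higher, where 4.04% of all genes were. The 4 became 2 with genotype plus diet and no interaction. Of 10 endothelial markers 1 was called higher (Cldn5) and 0 were shared, with 2 called higher by DESeq2 and 8 by limma-voom. That call was lost without MKO HFD replicate 1, WT HFD replicate 1, WT HFD replicate 2 or MKO NCD replicate 3, and 2 were called without MKO NCD replicate 2.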

How the data were processed

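RNA of whole gonadal fat was made into stranded mRNA libraries with a TruSeq kit, per the labels' protocols. The authors deposited 1 table of whole-number read counts per gene for 12 libraries. The submitters' processing notes name bcl2fastq 2.20.0, Trimmomatic, HISAT2 2.1.0, StringTie 1.3.4d, DESeq2 and the mm10 build. Whether counting used strand is not given in the sources used here, so overlapping and antisense genes may share reads. The table's 36 columns of FPKM, TPM and normalized values were not used.

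Of 32238 genes, 20297 passed edgeR's filterByExpr by group, which keeps genes with enough counts in a group's number of libraries. Counts were scaled by TMM and fitted with 1 mean per group over all 12 libraries (edgeR 4.0.16, R 4.3.3, robust quasi-likelihood, Benjamini-Hochberg over all genes tested, threshold 0.05, tested on simulated data). Levels are CPM, counts per 1e6 of the TMM-scaled library total, not corrected for gene length. SE is the absolute log2 fold change divided by the square root of F. Totals of 52.9 to 72.7 M counts per library leave counting error small beside replicate spread for all but the lowest genes. Alternatives were DESeq2 1.42.0, limma-voom (limma 3.58.1), other scalings and filters, a replicate block, and each library left out.

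Members and gene lists were chosen with earlier results of these data known, and 3 lists were added after values were seen. Genes were named by these rules: Bnip3; among shared genes of at least 1 CPM with a gene symbol, the 15 smallest p-values and the 10 largest changes in each direction; shared members of the lists; the 2 members of each list with the smallest p; shared genes of the 2 chromosomes richest in them; and the 5 genes with the smallest p of the diet difference in each direction. Genes outside these rules were chosen after their values were seen. Among them are parent Rps2, the genes next to the limit on size, and the list members given as not called. Of all genes in the table, 32157 matched RefSeq (GRCm38.p6, the same assembly as mm10), which gave coordinates and promoters.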

Additional observations from a re-analysis of the deposited data

Results flagged for a closer look

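Genes called on the average over diets were looked at for a difference of the genotype effect between the diets, tested as the interaction in edgeR's quasi-likelihood fit with Benjamini-Hochberg adjustment over all genes. Each value below is the log2 fold change of MKO over WT on HFD minus that on NCD, and none of these genes belongs to the shared set.

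Enzymes that supply fat synthesis had the larger change on NCD. For Me1, malic enzyme, the difference was -1.66 (adjusted p = 0.0261), from 0.38 on HFD and 2.04 on NCD. For Gpd1, which makes glycerol phosphate, it was -1.79 (adjusted p = 0.0261), from -0.36 on HFD and 1.43 on NCD. For Slc25a1, the mitochondrial citrate carrier, it was -1.45 (adjusted p = 0.0272), from 0.06 on HFD and 1.51 on NCD. None of these changes on HFD passed the test of that diet (adjusted p = 0.325, 0.403 and 0.971 in that order).

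Lmo2, a transcriptional cofactor of blood and vessel cells, differed by -1.73, and Apobec1, an RNA-editing enzyme, by -2.81 (adjusted p = 0.00983 each). Both were lower in MKO on HFD, where the macrophage markers were lower as well, and the part of those markers was not tested.

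Positive differences came from a fall on NCD. Gldc, of the glycine cleavage system, differed by 5.07 (adjusted p = 0.00753) and averaged 1.71 CPM in MKO on HFD, against 2.82 CPM in WT, and 1.91 CPM in MKO on NCD, against 106 CPM in WT. Nhsl1, an actin regulator, differed by 2.63 (adjusted p = 0.00983), and Hdac6, a cytoplasmic deacetylase, by 2.51 (adjusted p = 0.0125). The epididymis markers were high in the same 3 WT libraries on NCD, and their part was not tested.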

How the results depend on the processing

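Of 131 named genes called on the average, 81 stayed past the threshold under every alternative run, and 0 changed sign, which the choice of called genes largely fixes. DESeq2 called 1234 genes higher and 1769 lower on the average, 617 shared and lower, 182 list members (106 by the chosen test), 1719 on HFD, 2212 on NCD and 1109 for the difference between diets. limma-voom called 1547 higher, 1882 lower, 896 and 623 shared, 199 list members, 3665 on HFD, 1440 on NCD and 875 for the difference. With genotype plus diet and no interaction, 386 were lower and 68 list members were called. The labels do not say that a replicate number pairs libraries, and same-numbered libraries' deviations correlated by -0.143 to 0.165; with the replicate block the calls were 503 higher, 331 lower, 344 and 118 shared, 67 list members, 262 on HFD, 482 on NCD and 12 for the difference. A stricter size ratio, 2 to 3, left 365 and 130 shared genes. With no size condition 591 lower genes qualified, calls on each diet tested alone left 92 and 25, and a log2 fold change of at least 1 left 78 and 119. Leaving out each library in turn gave 383 to 1100 higher, 231 to 1278 lower, 252 to 689 and 85 to 440 shared, 52 to 128 list members, 7 to 1580 on HFD, 391 to 1028 on NCD and 2 to 288 for the difference. The share of higher calls was 55.7%, and 47.0% with RLE size factors (647 higher, 729 lower). Other scalings and filters kept these counts within 1.5 times. The cause of these movements was not tested. Depth limits the fold change of the 27 shared genes with a group at 0 in all 3 libraries, which has no upper bound.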
